A study of Arabidopsis thaliana with 36 samples.

Results

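The catalase genes CAT1, CAT2 and CAT3 and the ascorbate peroxidase gene APX1 of Arabidopsis thaliana were followed through all of the authors' comparisons. They were taken by locus, as AT1G20630 (CAT1), AT4G35090 (CAT2), AT1G20620 (CAT3) and AT1G07890 (APX1), in 4 tables of expression and 12 tables of splicing. All 4 loci were found among the 17164 loci listed in at least 1 of these tables. The choice of genes was made with the listed values known, so the values below are descriptions and carry no test of their own. Libraries came from whole seedlings of 6 genotypes in the Col-0 background: the triple mutant swap1-1sfps-2rrc1-3, the double mutants swap1-1sfps-2, swap1-1rrc1-3 and sfps-2rrc1-3, the single mutant swap1-1, and Col-0 wild type (WT). SWAP1, SFPS and RRC1 are RNA-binding splicing factors that act in phytochrome signalling, and each is represented by 1 allele. The alleles are left out of the names below (swap1, swap1sfps, swap1rrc1, sfpsrrc1, triple mutant). Seeds on sucrose-free MS medium were chilled for 4 days, given 3 h of white light and then kept in the dark to an age of 4 days. Seedlings of each genotype were then exposed for 3 h to red light with a photon flux of 7 µmol per m2 and second or held in the dark for the same 3 h, which gave 12 groups of 3 libraries.

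Hydrogen peroxide is formed in peroxisomes, chloroplasts, mitochondria and the cytosol, and it is both a toxic by-product and a signal. Catalases are haem enzymes that split it into water and oxygen in peroxisomes, without a reductant. Ascorbate peroxidases reduce it with ascorbate, and APX1 is the main form in the cytosol. CAT2 is the major leaf catalase and removes the peroxide made by glycolate oxidase in photorespiration, CAT3 is abundant in vascular and ageing tissue, and CAT1 is known from seeds, pollen and stress. Dark-grown seedlings feed on stored oil, whose breakdown by beta-oxidation also makes peroxide in peroxisomes.

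The files hold results for whole groups only, so the depth of each library and the spread between libraries are unknown. The labels do not state whether the 3 libraries of a group came from seedlings grown apart, and the deposited p-values may measure technical spread only. In whole seedlings, fewer cells of a type and less RNA per cell cannot be told apart. Every log2 fold change below sets red light over the dark, a mutant over WT, or the triple mutant over a double mutant. The files do not name the numerator. It was settled from the values for swap1 and WT, and for the triple mutant it was carried over from the same order of group names, without a check of its own kind. The mutated gene SWAP1 had 3 exon bins listed higher and 2 lower in swap1 than in WT in red light, and 2 higher and 2 lower in the dark, from -1.51 to 1.70 in red light and from -1.08 to 0.86 in the dark by the authors' deposited table. Its transcript AT4G31200.3 was listed higher in swap1 in red light, at 0.92 (deposited SE 0.28) by the authors' deposited table. RRC1 had 1 exon bin listed lower in the triple mutant than in WT in each light condition, and no bin or transcript of SFPS was listed.

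The coding sequences of the catalases are close relatives. CAT2 and CAT1 proteins share 86.8% of residues, CAT3 and CAT1 79.1%, and CAT3 and CAT2 78.0%, each over 492 residues. Their introns sit at shared coding positions: CAT1, CAT2 and CAT3 all have introns after coding bases 15, 112, 390, 1167 and 1257, CAT1 and CAT2 after base 1325, and CAT2 and CAT3 after base 1419. CAT3 (chr1:7142972-7146540, plus strand) and CAT1 (chr1:7146636-7150180, plus strand) lie in tandem, 95 bases apart. CAT2 lies on the minus strand at chr4:16700312-16703504 and shares 95 bases with the convergent gene AT4G35080, so reads there cannot be assigned without strand. APX1 lies on the plus strand at chr1:2437281-2439665. CAT1 has 1 annotated transcript, CAT2 3, CAT3 6 and APX1 8. Coordinates are in TAIR10 as in the files, and sequences were read from the RefSeq copy of the same build.

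The unannotated junctions listed at CAT3 and APX1 all end just after an AG, and the sequences around these ends are shown because the splicing results turn on them. The window chr1:7145771-7145905 holds the fifth CAT3 intron. The window chr1:7145596-7145721 holds the fourth CAT3 intron, and chr1:7145914-7145966 lies inside the exon that follows the fifth. The windows chr1:2437660-2437689 and chr1:2437975-2438004 hold the 3′ splice sites on either side of the alternative APX1 leader exon. Capitals mark, from left to right, the GT at the first skipped bases where the window holds it, then the annotated AG, if any, and each further AG at the end of a listed junction or an annotated intron. All are on the plus strand, 5′ to 3′.
CAT3 intron 5: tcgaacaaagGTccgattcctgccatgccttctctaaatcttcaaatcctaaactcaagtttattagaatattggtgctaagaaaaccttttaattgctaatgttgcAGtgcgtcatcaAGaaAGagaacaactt
CAT3 intron 4: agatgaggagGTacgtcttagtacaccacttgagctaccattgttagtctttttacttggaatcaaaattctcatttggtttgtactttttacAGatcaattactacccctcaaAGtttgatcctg
CAT3 stretch inside the exon: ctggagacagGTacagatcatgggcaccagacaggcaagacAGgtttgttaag
APX1 tandem 3′ splice site: atgatgtgtttttcgtAGtAGatccacgat
APX1 3′ splice site before the start codon: tctgtgtatttgttccAGagcttAGctaag

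In CAT3 intron 5 the further AGs lie 12 and 16 bases past the annotated one, and in intron 4 the further AG lies 21 bases past it. The stretch inside the exon skips 33 bases from a GT to an AG, and neither end is an annotated site. In APX1 the tandem AGs lie 3 bases apart, and both are annotated ends of the alternative exon. The further AG before the start codon lies 7 bases past the annotated one and leaves 5 bases of leader before the start codon. Removal of 12, 21 or 33 coding bases keeps the reading frame of CAT3, and removal of 16 does not.

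Introns 4 and 5 of CAT1 are also shown. Reads in all CAT1 introns were listed higher than in WT in the triple mutant, and in swap1 in the dark. In swap1 in red light, introns 4 and 5 were not listed against WT. CAT1 intron 4 spans chr1:7149016-7149105 and intron 5 spans chr1:7149196-7149285, on the plus strand. Capitals mark the GT and AG at the ends.
CAT1 intron 4: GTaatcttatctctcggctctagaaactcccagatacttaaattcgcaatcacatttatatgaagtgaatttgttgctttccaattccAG
CAT1 intron 5: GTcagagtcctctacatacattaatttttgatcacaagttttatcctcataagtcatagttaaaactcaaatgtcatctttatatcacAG

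Transcripts of CAT2, the photorespiratory catalase, and of APX1 were higher in red light than in the dark in both swap1 and WT, while no transcript of CAT1 or CAT3 was listed by light in either genotype. In each genotype, 2 of the 4 loci were listed, both higher. Among protein-coding loci, 14.1% had a transcript listed higher in red light in swap1 and 12.5% in WT. With 4 loci that were chosen from these values, the counts say nothing about the group.

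CAT2 transcript AT4G35090.2, which encodes 474 residues in place of 492, had the highest level of the listed CAT2 transcripts. How reads shared by transcripts were counted is not given, so this order of levels is uncertain. Solved from the deposited base mean and fold change, the mean level of AT4G35090.2 was 829 normalised counts in swap1 in red light. It was 346 in swap1 in the dark. In WT the solved level was 577 normalised counts in red light and 260 in the dark. The log2 fold change by light was 1.26 (SE 0.12, adjusted p = 3.97e-26) in swap1 and 1.15 (SE 0.17, adjusted p = 3.89e-11) in WT by the authors' deposited table, from DESeq2. Transcript AT4G35090.1 had solved levels of 216 and 94.7 normalised counts in red light and in the dark in swap1, and of 172 and 110 in red light and in the dark in WT. Its log2 fold change by light was 1.19 (SE 0.20) in swap1 and 0.64 (SE 0.19) in WT by the authors' deposited table. Both transcripts were thus higher in red light in both genotypes, and the difference between genotypes in the light response was not tested. Neither CAT2 transcript was listed between swap1 and WT in either light condition.

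**Figure D1:**
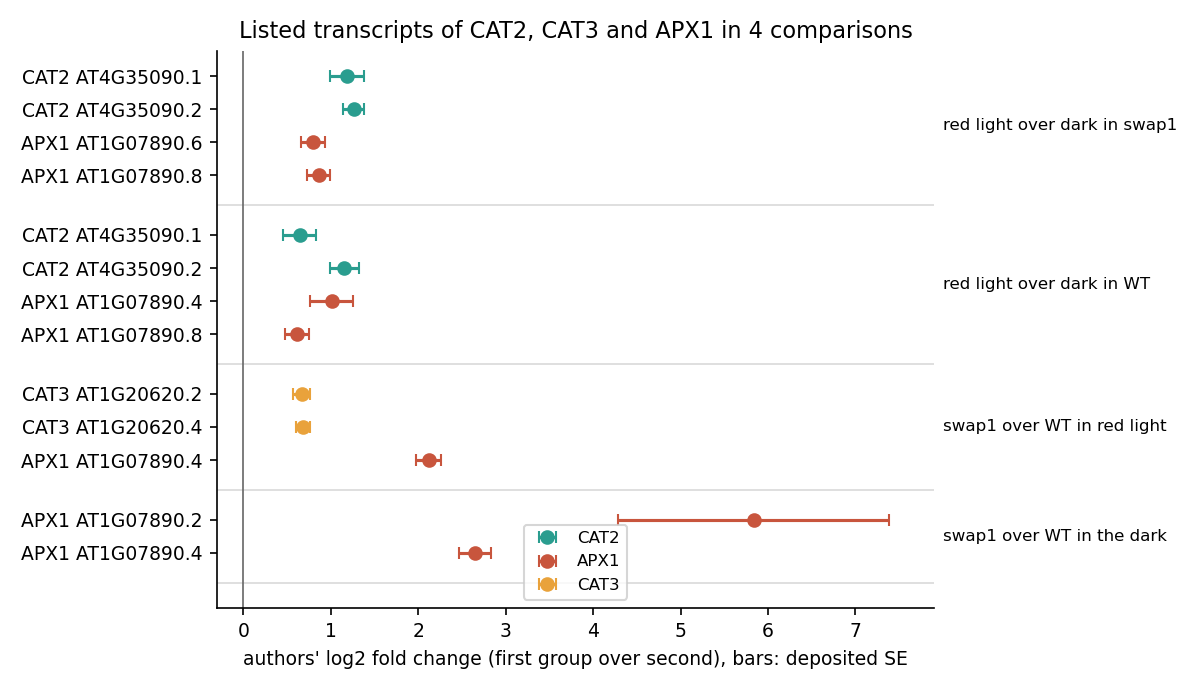
The authors' log2 fold changes of every listed transcript of CAT2, CAT3 and APX1, first group over second, in 4 comparisons; bars are the deposited SE. All 13 values lie above 0, and the APX1 transcripts AT1G07890.4 and AT1G07890.2 stand highest, between swap1 and WT.

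CAT2 also had 1 listed intron bin. A bin is a piece of an exon or intron, and its reads are set against those of the whole gene. The first intron of CAT2, 260 bases at chr4:16702941-16703200 (minus strand), was 0.65 higher on the log2 scale in red light than in the dark in swap1, with an FDR of 1.15e-09, by the authors' deposited table. It was also 0.74 higher in swap1 than in WT in red light, with an FDR of 5.93e-15, by the authors' deposited table. The intron lies right after the fifth codon, and it is exonic in transcript AT4G35090.3, whose start codon lies inside it. Read through from the usual start, its 9th codon is the first in-frame stop. Intron bins were listed higher in 5.56% of intron-containing loci by light in swap1, and in 20.8% in swap1 over WT in red light. None of the other 6 CAT2 introns was listed in any of the 12 tables.

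CAT3 had 2 transcripts that were higher in swap1 than in WT in red light. AT1G20620.4 had solved levels of 2022 normalised counts in swap1 and 1262 in WT, a log2 fold change of 0.68 (SE 0.08, adjusted p = 2.1e-15) by the authors' deposited table, from DESeq2. AT1G20620.2 had solved levels of 1296 normalised counts in swap1 and 817 in WT, a log2 fold change of 0.66 (SE 0.09, adjusted p = 2.7e-11) by the authors' deposited table, from DESeq2. Both are annotated with shorter proteins than the 492 residues of AT1G20620.1: 377 for AT1G20620.4, and 427 for AT1G20620.2, which keeps the fifth intron. In red light 2 of the 4 loci, CAT3 and APX1, were listed higher in swap1, against 7.06% of protein-coding loci. In the dark only APX1 was listed higher, against 5.6% of protein-coding loci, and no transcript of the 4 loci was listed lower in any comparison.

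The listed CAT3 regions were unannotated junctions, at the ends of introns 4 and 5 and inside the exon after intron 5. An anchor region is a junction whose use is set against the reads that cross its ends, and its change in inclusion is deposited as a fraction without a sign. The junction from the donor of CAT3 intron 5 to the AG 12 bases past the annotated site (chr1:7145780-7145892) changed by 0.795 in the triple mutant over WT in red light, and by 0.789 in swap1 against WT in red light, by the authors' deposited table. In the dark the listed junction of this intron ended 16 bases past the annotated site (chr1:7145780-7145896) and changed by 0.795 in swap1 against WT by the authors' deposited table. The stretch of 33 bases inside the next exon (chr1:7145923-7145957) changed by 0.851 in the triple mutant over WT in the dark by the authors' deposited table. It changed by 0.327 in the triple mutant against sfpsrrc1 in the dark by the authors' deposited table. The junction 21 bases past the end of intron 4 (chr1:7145605-7145712) changed by 0.581 in red light against the dark in swap1 by the authors' deposited table. All of these junctions lie near the end of the coding region, and no bin of CAT3 was listed.

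The size of these changes can be read against the other unannotated junctions of each table. In red light, 36 of 3213 unannotated anchor junctions (1.12%) changed at least as much as the CAT3 junction in swap1 against WT, and the median was 0.412 by the authors' deposited table. In the dark the count was 47 of 3347 (1.40%) in swap1 and 30 of 4660 (0.644%) in the triple mutant, each against WT. For the triple mutant over WT under red light it was 47 of 4294 (1.09%). The 0.581 change by light in swap1 was matched or exceeded by 49 of 359 (13.6%), and the 0.327 change in the triple mutant against sfpsrrc1 by 1093 of 1403 (77.9%). Junctions from an annotated donor to an acceptor 1 to 30 bases past an annotated one made up 7.97% of unannotated junctions in swap1 against WT in red light and 6.66% in the dark. Every one of those acceptors followed an AG in the reference genome. The unsigned change does not say in which genotype the downstream site was used more.

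CAT1 was listed for its introns and not for its transcript. It was absent from all 4 expression tables, but reads in its introns were listed higher in 6 splicing tables and lower in none. In the dark, all 6 CAT1 introns were listed higher in swap1 than in WT and in the triple mutant than in WT. Under red light all 6 were listed higher in the triple mutant and introns 1 to 3 in swap1, each against WT. In WT, introns 4 and 6 were listed higher in red light than in the dark. CAT1 intron 1 was listed in the triple mutant against sfpsrrc1 in red light.

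In the dark all 6 introns had a value in both mutants. Against WT in the dark, CAT1 introns 1 to 6 were at 1.01, 1.71, 1.61, 1.85, 1.95 and 1.47 on the log2 scale in the triple mutant by the authors' deposited table, a median of 1.66. In swap1 against WT in the dark they were at 0.99, 1.45, 1.47, 1.38, 1.35 and 0.97 by the authors' deposited table, a median of 1.37. Intron 1, the longest at 586 bases, and intron 6 were the lowest in both. The swap1 and triple mutant comparisons share the WT libraries, and the triple mutant was not compared with swap1 in the files used here.

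Under red light 5 of the 6 introns had a smaller listed value in the triple mutant than in the dark, and intron 3 a larger one. Introns 1 to 6 were at 1.00, 1.12, 2.32, 0.95, 0.89 and 0.59 in the triple mutant against WT by the authors' deposited table. The value of intron 3 is the highest of all but has the weakest support, an FDR of 0.0243 by the authors' deposited table against at most 2.67e-04 for the other 5. In swap1 against WT in red light, introns 1, 2 and 3 were at 0.76, 0.69 and 0.62 by the authors' deposited table. Intron 1 also had an anchor call in the triple mutant against WT, with a change in inclusion of 0.380 in red light and 0.347 in the dark by the authors' deposited table. By light in WT, intron 4 was at 0.93 (FDR 0.0068) and intron 6 at 0.72 (FDR 0.0162) by the authors' deposited table.

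**Figure D2:**
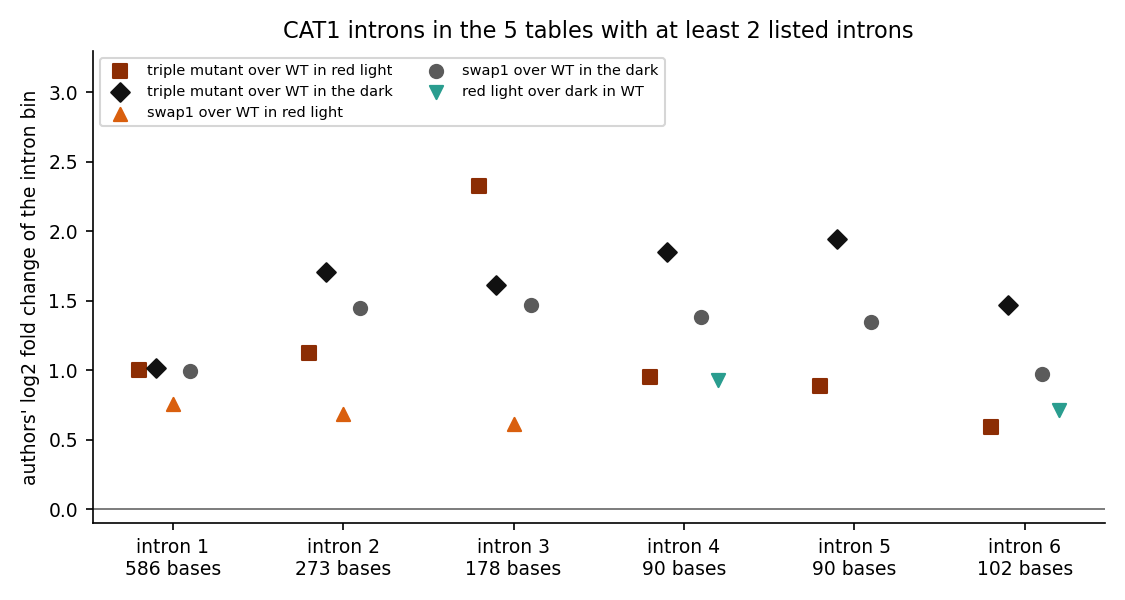
The authors' log2 fold change of each listed CAT1 intron bin (y axis) by intron (x axis, with its length), for the 5 tables that list at least 2 CAT1 introns. All values lie above 0, from 0.59 to 2.32, and all 6 introns are listed in 3 of the comparisons with WT.

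More intron reads in the mutants were common across the genome. Intron bins were listed higher in 9.19% of protein-coding loci with introns in swap1 against WT in the dark and in 20.8% in red light. The shares in the triple mutant were 12.5% in the dark and 21.6% in red light. By light in WT the share was 1.29%. In swap1 against WT in the dark, 85.2% of the 3335 listed intron bins were higher, with a median of 0.79 on the log2 scale among those by the authors' deposited table. That median was 0.80 in swap1 against WT in red light and 0.94 by light in WT. Every CAT1 intron listed in these 2 comparisons was below it. In the triple mutant against WT it was 0.81 in red light and in the dark. CAT1 intron 6 in red light was below that value, and the other CAT1 introns were above it. A listing of every annotated intron of a gene was rare: among 8881 loci with at least 6 introns it held for 1 locus in swap1 and 3 in the triple mutant over WT in the dark, and for 2 in the triple mutant in red light, CAT1 included each time. In swap1 over WT in red light it held for 1 locus, which was not CAT1. Loci with several transcripts have more distinct introns in this count, and CAT1 has 1 transcript. Loci with at least 6 intron bins listed higher, whatever their number of introns, were more common. Against WT there were 26 in swap1 and 71 in the triple mutant in the dark. In red light there were 100 in swap1 and 135 in the triple mutant.

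All 6 CAT1 introns lie inside the coding region, begin with GT, end with AG and hold 29.4% to 35.6% G and C. Read through, 5 of them carry an in-frame stop, between codon 2 in intron 6 and codon 21 in intron 4, counted from the codon at the exon end. Intron 3 carries none, but its 178 bases are no multiple of 3. CAT2 has introns at all 6 of these coding positions, and in the same comparisons with WT only its first was listed, in red light. CAT3 shares 5 of these positions, and none of its introns was listed as a bin.

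Among transcripts of the 4 genes, those of APX1 with an alternative exon in the leader had the largest listed changes. AT1G07890.4 had a solved level of 596 normalised counts in swap1 and 137 in WT in red light. In the dark the solved level was 458 normalised counts in swap1 and 72.8 in WT. The log2 fold change was 2.12 (SE 0.14, adjusted p = 7.98e-47) in red light and 2.65 (SE 0.18, adjusted p = 4.59e-45) in the dark by the authors' deposited table, from DESeq2. Both groups of swap1 thus stood above both groups of WT. In WT the transcript was also higher in red light than in the dark, at 1.01 (SE 0.24) by the authors' deposited table, with solved levels of 132 normalised counts in red light and 65.6 in the dark. In swap1 its light response was not listed, and the sum of the other 3 deposited comparisons puts it at 0.47 on the log2 scale, below the listing minimum of 0.585.

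AT1G07890.8 and AT1G07890.6 were listed by light and not between genotypes. AT1G07890.8, which keeps the first leader intron, had solved levels of 445 and 245 normalised counts in red light and in the dark in swap1, and of 425 and 277 in red light and in the dark in WT. Its log2 fold change by light was 0.86 (SE 0.13) in swap1 and 0.62 (SE 0.14) in WT by the authors' deposited table. AT1G07890.6, which skips the alternative exon, was listed by light in swap1, at 0.80 (SE 0.14) by the authors' deposited table, with solved levels of 414 normalised counts in red light and 238 in the dark. AT1G07890.2 differs from AT1G07890.4 by 3 bases at the tandem splice site and by an earlier annotated start. It was listed at 5.84 (SE 1.55) in swap1 against WT in the dark by the authors' deposited table, but its base mean was 5.53 normalised counts, so the fold change rests on few reads. Of the 8 APX1 transcripts, 4 were not listed in any table.

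**Figure D3:**
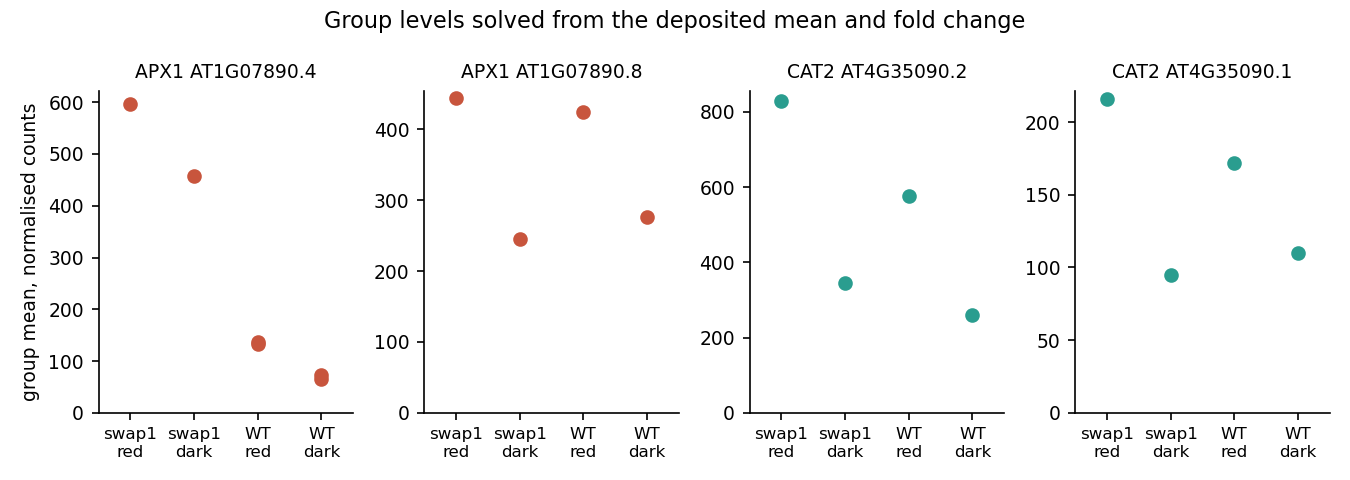
Group means in normalised counts (y axis, from 0) of APX1 and CAT2 transcripts in swap1 and WT in red light and in the dark, solved from deposited base means and fold changes; 2 points in a column come from 2 tables. AT1G07890.4 stands at 458 or more in both swap1 groups and at 137 or less in both WT groups, while the other 3 transcripts follow light in both genotypes.

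All 8 APX1 transcripts are annotated with the same start codon, and 7 of them, AT1G07890.4 among them, with a protein of 250 residues. The transcripts differ in the leader before that codon. The second exon of AT1G07890.4 has 156 bases and ends 172 bases before the start codon. The bins of that exon were listed higher in swap1 and in the triple mutant. In the triple mutant against WT, the exon bins E006, E008 and E009 were at 0.99, 1.09 and 1.11 in red light and at 1.42, 1.59 and 1.52 in the dark by the authors' deposited table. The same bins in swap1 over WT were at 1.24, 1.31 and 1.34 in red light and at 1.44, 1.56 and 1.53 in the dark by the authors' deposited table. The overlapping bin I003, an intron of another transcript, followed E006 at 0.99 to 1.44 in these 4 tables. All of these bins are inside the alternative exon, and each had an FDR of at most 1.1e-61 by the authors' deposited table.

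The introns on either side moved by less. The intron before the exon, I001, was at -0.31 and -0.35 in the triple mutant and at -0.25 and -0.39 in swap1, in red light and in the dark, each against WT, by the authors' deposited table. The intron after it, I006, was at 0.25 and 0.56 in the triple mutant and at 0.38 and 0.32 in swap1, in red light and in the dark, each against WT, by the authors' deposited table. These 8 values lie below the fold minimum that the headers name, although the bins are listed. I001 is the intron that AT1G07890.8 keeps, and it is the one APX1 bin that was lower in the mutants. It also had an anchor call in all 4 comparisons, with unsigned changes in inclusion from 0.348 to 0.505 by the authors' deposited table.

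**Figure D4:**
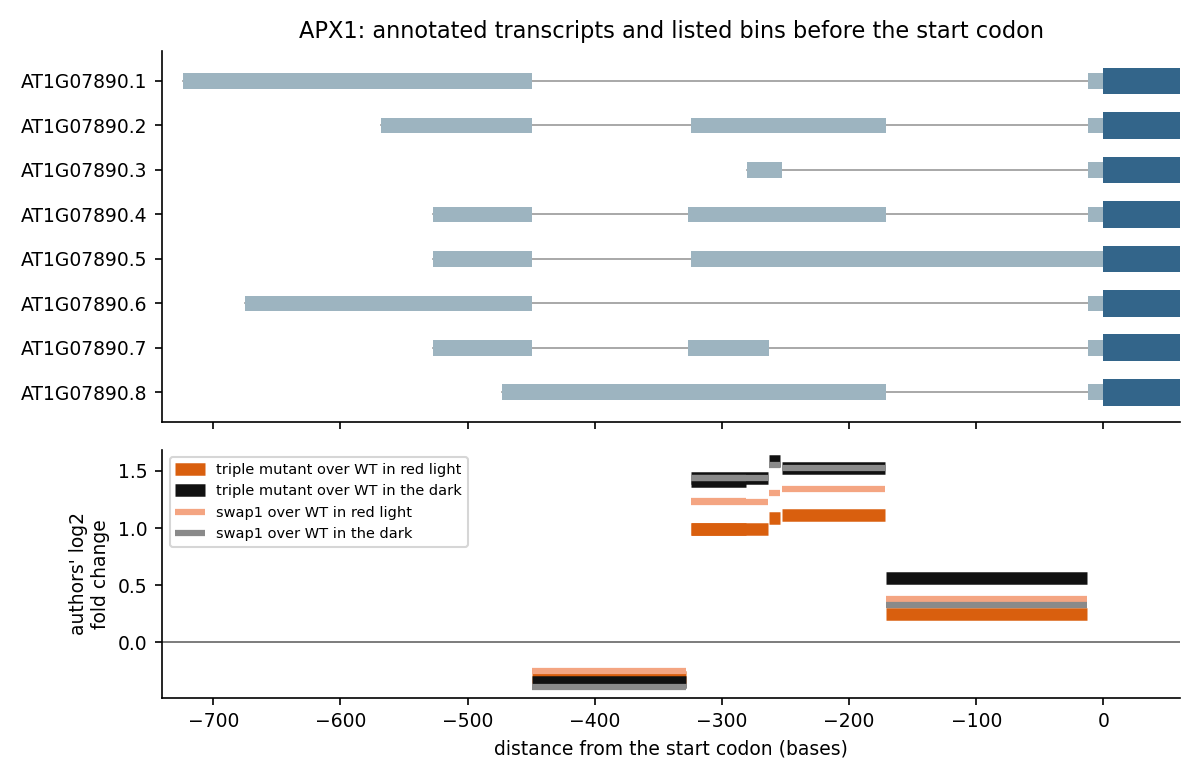
Above, exons of the 8 annotated APX1 transcripts by distance from the start codon in bases (thin, leader; thick, coding); below, the authors' log2 fold change of each listed APX1 bin (y axis) drawn over its bases, in 4 comparisons with WT. Bins of the alternative exon stand at 0.99 to 1.59, the intron before it at -0.39 to -0.25, and the intron after it at 0.25 to 0.56.

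Junction reads of APX1 were listed in the same 4 comparisons. The region from the end of the first exon to the alternative exon, Io009 (chr1:2437555-2437681), changed in inclusion by 0.376 in red light and 0.508 in the dark in the triple mutant against WT by the authors' deposited table. Its change in swap1 against WT was 0.395 in red light and 0.514 in the dark by the authors' deposited table. A junction that skips the exon and ends at the AG 7 bases past the annotated site before the start codon (chr1:2437555-2438000) changed in participation by 0.379 in red light and 0.480 in the dark in the triple mutant against WT by the authors' deposited table. Its change in swap1 over WT was 0.469 in red light and 0.534 in the dark by the authors' deposited table. Participation is the share of a junction in the reads of its group of overlapping junctions, and these changes have no sign either.

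The triple mutant was also set against each double mutant. No region of the 4 loci was listed in the triple mutant against swap1sfps or against swap1rrc1, in either light condition. Those 4 tables list few loci: 0.849% and 0.692% of intron-containing loci against swap1sfps, and 0.835% and 1.1% against swap1rrc1, in red light and in the dark. Against sfpsrrc1, the double mutant that keeps SWAP1, 2 of the 4 loci were listed in the dark and 1 in red light, with 6.63% and 5.47% of intron-containing loci listed in the dark and in red light. Intron bins were listed higher in 1.56% of intron-containing loci in the dark and in 1.55% in red light there. In the dark the APX1 bin E008 was at 0.63 (FDR 8.49e-36) and I003 at 0.59 (FDR 3.2e-31) in the triple mutant against sfpsrrc1 by the authors' deposited table. In red light CAT1 intron 1 was at 0.30 (FDR 1.71e-04) in the triple mutant against sfpsrrc1 by the authors' deposited table.

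sfpsrrc1 was not set against WT in the files used here. Subtracting the triple mutant's value against sfpsrrc1 from its value against WT puts APX1 E008 at 0.96 and I003 at 0.85 in sfpsrrc1 over WT in the dark, and CAT1 intron 1 at 0.70 in red light. These differences have no error, since the deposited bins carry none. The other 5 CAT1 introns, E006 and E009 of APX1 and the APX1 junctions were listed against WT and not against sfpsrrc1, and the tables give no value for them there.

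In comparisons with WT, the regions of the 4 loci covered all of them or all but CAT2. Between swap1 and WT, 13 regions of 4 loci were listed in red light, when 27.1% of intron-containing loci held a listed region. In the dark 15 regions of 3 loci were listed, against 17.4%. In the triple mutant against WT 15 regions of 3 loci were listed in red light and 15 of 3 in the dark, against 29.5% and 23% of intron-containing loci. By light, 2 regions of 2 loci were listed in swap1, against 9.25%, and 2 regions of 1 locus in WT, against 6.43%. Over all 12 tables, APX1 had 34 listed regions, CAT1 24, CAT3 6 and CAT2 2.

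The pattern of 3 transcripts of other loci was most like that of APX1 AT1G07890.4, by the root mean square difference of log2 fold changes over its 3 expression tables, out of 703 transcripts listed in those tables. AT5G25230.1 differed by 0.25, AT5G41710.1, from a locus annotated as a pseudogene, by 0.35, and BGLU28 (AT2G44460.1), a beta-glucosidase gene, by 0.37. AT5G25230.1 was at 2.22 in swap1 against WT in red light, 2.78 in the dark and 1.40 by light in WT by the authors' deposited table.

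The genes that work beside the catalases and APX1 were read from 9 lists with 73 genes, given here by counts of genes with a listed transcript; a value is that of the listed transcript with the largest change. By light, 19 of the 73 rose and 5 fell in swap1, and 18 rose and 4 fell in WT. Among protein-coding loci, 14.1% were listed higher and 10.5% lower by light in swap1, and 12.5% and 7.95% in WT. Between genotypes, 5 of the 73 were higher and 8 lower in swap1 than in WT in red light, and 5 were higher and 12 lower in the dark. Across protein-coding loci, 7.06% were higher and 9.64% lower in red light, and 5.6% higher and 7.14% lower in the dark.

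The ascorbate peroxidases other than APX1 were listed higher in red light or not at all. Of 7 genes, 5 were higher in red light in swap1 and 3 in WT, and none was lower. At an absolute log2 fold change of 1 or more, 1 remained in swap1 and 1 in WT. APX4 (TL29), a thylakoid lumen protein related to the family, was at 1.92 in swap1 and 1.51 in WT, and the peroxisomal APX3 was at 0.95 in swap1 and 0.76 in WT by the authors' deposited table. The thylakoid form TAPX was at 0.74 in swap1 and 0.59 in WT by the authors' deposited table. Between genotypes in the dark, APX2, the closest relative of APX1 and a heat and high-light gene, was at 3.44 (SE 0.79) on a base mean of only 14 normalised counts, while the stromal SAPX and APX4 were at -0.84 and -0.78 in swap1 against WT by the authors' deposited table. None of the 7 was listed between swap1 and WT in red light.

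The enzymes that return ascorbate to its reduced form showed the same direction by light for most listed members. Of 10 genes, 4 rose in swap1, and 3 rose and 1 fell in WT. DHAR1, a dehydroascorbate reductase of the cytosol, was at 1.21 in swap1 and 1.25 in WT, in red light against the dark by the authors' deposited table. Between genotypes in red light, MDAR1, a monodehydroascorbate reductase, was at 1.61 and GR1, a glutathione reductase, at -1.17 in swap1 against WT by the authors' deposited table. These are values of single transcripts, AT3G52880.2 (base mean 129) and AT3G24170.3 (base mean 74.6), and not of the whole genes. Of 5 genes for ascorbate synthesis, 2 rose with light in swap1 and 1 in WT, with VTC2, the GDP-L-galactose phosphorylase that limits the pathway, at 1.96 in swap1 and 1.61 in WT by the authors' deposited table.

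Superoxide dismutases, which make hydrogen peroxide from superoxide, and the thiol peroxidases were lower in swap1 where they were listed. Of 8 superoxide dismutases, 2 were lower in swap1 than in WT in red light and 3 in the dark, and none was higher. MSD2 was at -2.11 in red light and -1.42 in the dark in swap1 against WT by the authors' deposited table. FSD1, a chloroplast iron enzyme, was at -0.73 and -0.69 there by its transcript AT4G25100.2 (base means 4705 and 5455). By light, the value is for another FSD1 transcript, AT4G25100.1, at 1.10 in swap1 and 1.19 in WT by the authors' deposited table (base means 198 and 247). Of 16 thiol peroxidases, 2 were lower in swap1 in red light and 3 in the dark, with PRXIID at -1.65 in red light and -1.30 in the dark by the authors' deposited table. By light 5 of the 16 rose and 1 fell in each genotype, with the plastid GPX7 at 6.86 in swap1 and 5.46 in WT and the plastid PRXQ at 1.82 in swap1 and 1.47 in WT by the authors' deposited table.

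The peroxisomal sources of hydrogen peroxide had few listed transcripts. Of 8 genes, 1 rose and 1 fell with light in swap1, 1 rose in WT, and none was listed between genotypes. GOX1, a glycolate oxidase whose product is removed by CAT2, was at 3.42 (SE 0.87) in swap1 and 2.84 (SE 1.11) in WT in red light against the dark by the authors' deposited table, on base means of only 11.7 normalised counts in swap1 and 5.17 in WT. Of 8 genes of fatty acid breakdown and the glyoxylate cycle, 2 fell with light in each genotype. Isocitrate lyase ICL was at -1.51 in swap1 and -0.75 in WT, and malate synthase MLS at -0.86 in swap1 and -0.70 in WT, in red light against the dark by the authors' deposited table. ICL was also at -1.50 in red light and -0.75 in the dark in swap1 against WT by the authors' deposited table. PXA1, the peroxisomal fatty acid importer, was listed higher in swap1 with different transcripts, AT4G39850.1 at 1.31 in red light (base mean 24.8) and AT4G39850.2 at 1.04 in the dark (base mean 86.3), by the authors' deposited table.

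Of the 3 partners and regulators of catalase, LSD1, a zinc finger protein that binds catalases, had transcript AT4G20380.8 listed higher in swap1. It was at 0.63 (SE 0.23) in red light and 0.62 (SE 0.23) in the dark by the authors' deposited table, on base means of 123 and 103. At an adjusted p-value of 0.01 or an absolute log2 fold change of 1, LSD1 was no longer listed in either comparison. NCA1, a chaperone needed for catalase activity, and GBF1, a bZIP factor that represses CAT2, had no listed transcript. All 3 held a listed splicing region in each of the 4 comparisons with WT. The shares of all intron-containing loci there were 27.1% and 17.4% for swap1 in red light and in the dark. For the triple mutant they were 29.5% and 23%. With 3 chosen genes, this count says nothing about catalase partners as a group. Of 8 genes that respond to oxidative stress, 1 rose and 1 fell with light in swap1 and 3 rose in WT, with the alternative oxidase AOX1A at 1.14 in swap1 and 0.69 in WT by the authors' deposited table. Between genotypes, 1 of them was listed higher in swap1 and 1 lower under red light, and 2 were higher and 1 lower in the dark. UPOX was at 0.85 in red light and 0.71 in the dark in swap1 over WT by the authors' deposited table. GSTU25 was at -0.85 in red light and -0.82 in the dark there, and OXI1 at 0.80 in the dark.

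**Figure D5:**
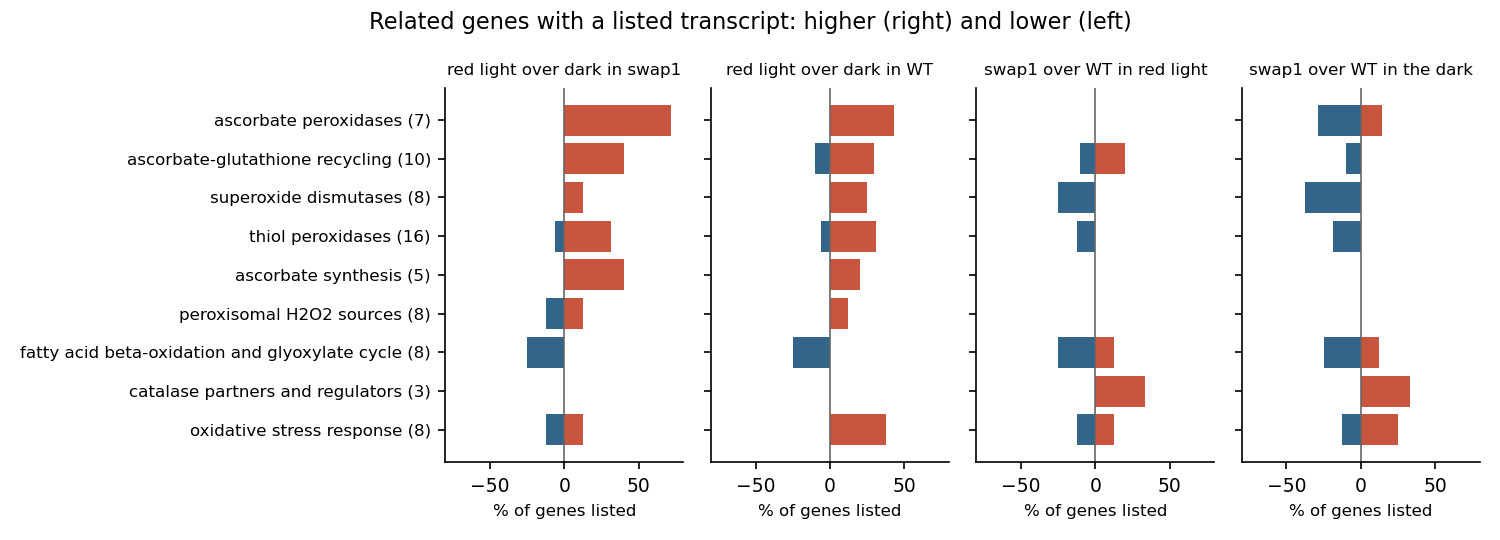
Share of each list's genes (number in parentheses) with a transcript listed higher (right of 0, red bars) or lower (left of 0, blue bars), in percent, in 4 expression comparisons. Higher bars prevail by light in both genotypes, with 5 of 7 ascorbate peroxidases in swap1 and 3 of 7 in WT, and superoxide dismutases and thiol peroxidases have only lower bars between swap1 and WT.

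Splicing regions of these 73 genes were listed for 34 (46.6%) in swap1 against WT in red light and 23 (31.5%) in the dark, and for 42 (57.5%) in red light and 34 (46.6%) in the dark in the triple mutant against WT. The shares among all intron-containing loci were 27.1% and 17.4% for swap1 and 29.5% and 23% for the triple mutant. Those loci are counted whether or not they were expressed, and a locus with few reads can hardly be listed. The 73 genes were not matched to them for expression, so the gap was not tested. Of 8 genes for peroxisomal peroxide sources, 7 held a region in red light in both mutants, among them GOX1, GOX2 and ACX1, an acyl-CoA oxidase.

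Some markers of seed tissue and root hairs were listed between genotypes. Of 12 seed storage and late embryo genes, 6 were lower in swap1 than in WT in red light and 4 in the dark. None was higher. Among protein-coding loci, 9.64% were listed lower in red light and 7.14% in the dark. EM6 was at -2.84 in red light and -1.66 in the dark by the authors' deposited table. Its base means there were 131 and only 15.2 normalised counts. By light, 2 of the 12 rose in swap1 and 3 in WT, against 14.1% and 12.5% of protein-coding loci. Of 7 root hair genes, 3 were higher in swap1 in red light and 1 in the dark, against 7.06% and 5.6% of protein-coding loci. EXPA18 was at 0.60 in red light and 0.93 in the dark by the authors' deposited table. By light, 1 of the 7 was listed, LRX1 in WT at -0.74 by the authors' deposited table, where 7.95% of protein-coding loci were listed lower. The files give no level for genes that are not listed, so the level of a whole marker list could not be summed, and the part of these tissues in the values above was not tested.

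Terms on hydrogen peroxide and peroxisomes passed an adjusted p-value of 0.05 in few of the authors' gene ontology tables. By light, response to oxidative stress had an adjusted p-value of 0.0325 with 57 genes in swap1 and of 0.0155 with 52 genes in WT, CAT2 and APX1 among both, by the authors' deposited table. Response to hydrogen peroxide had 0.437 in swap1 and 0.0388 in WT by the authors' deposited table. Hydrogen peroxide catabolic process, which lists CAT1, CAT3 and APX1, had 0.328 and 0.295 for spliced loci of the triple mutant over WT in red light and in the dark, and 0.508 and 0.292 for those of swap1 against WT, by the authors' deposited table. Photorespiration had 0.00697 for spliced loci by light in WT and peroxisome organization 0.0146 in the triple mutant over WT in red light, with none of the 4 genes in either, by the authors' deposited table. In the triple mutant against sfpsrrc1 in the dark, cellular response to oxidative stress had 0.0434 with 7 genes, APX1 among them, by the authors' deposited table.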

How the data were processed

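FastQC, STAR, HTSeq, DESeq2 and build TAIR10 are named in the submitters' processing notes, and ASpli 2.0 in the series design. The strand setting and other versions were not given in the sources used here. Reads were 150 bp. The deposited expression tables hold, per transcript, the base mean as a normalised signal, a log2 fold change with its SE, a Wald score and raw and adjusted p-values from DESeq2, per the file headers, and list only transcripts past an absolute log2 fold change of 0.585 and an adjusted p-value of 0.05. Reads shared by transcripts of 1 locus make these values uncertain, since how they were counted is not given. The deposited splicing tables hold bins with a log2 fold change and an FDR, and junctions with a likelihood ratio score and a change, per the file headers. The filters named there are a bin fold of 1.5 and a bin FDR of 0.05 (0.03 with the triple mutant), and a junction FDR of 0.01 and change of 0.3. Of 52 listed bins of the 4 loci, 9 lie below the fold. The deposited GO tables hold for each term an enrichment ratio, with its adjusted p-value, per the file headers.

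The direction of fold changes was settled from the values. Over 535 transcripts in all 4 expression tables, the comparisons closed to a median of 0.00302 log2 units with the genotype tables turned (deposited as WT over swap1), and to 0.628 at the next best choice. Closure fixes only relative signs. The overall sign comes from group levels, each solved from 2 tables, whose median gap over 535 transcripts was 0.0982 log2 units at this choice, 0.309 at the next of 16 and 1.48 with all 4 tables turned. Over 49 bins, the 4 splicing tables of WT and swap1 closed to 1.00e-03 as second group over first. Bins in exons of 1 listed transcript had that transcript's direction in 84.3% to 98.8% of cases, which ties the bins to that overall sign. The triple mutant tables are in no such loop. Their direction was carried over from the same header order, and an RRC1 exon bin was lower in the triple mutant than in WT and than in swap1sfps. Of 16908 distinct listed intron bins, 97.8% equalled an intron of the RefSeq annotation (TAIR10.1), and 99.0% of those ran from GT to AG.

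No test was run, because no value per library is in the files. Group levels were solved from base mean and fold change, as equal weights over 2 groups of 3 libraries. The number of transcripts tested is not given and is at least 28332 in each comparison, from ranks and adjusted p-values. Background shares use 27562 protein-coding loci and the 22269 of them with an annotated intron, without a filter on expression. Calculations used Python 3.11.15 and Biopython 1.88 and were checked on simulated data. The 4 loci, the gene lists and the naming rule (every listed transcript and region of the 4 loci, up to 4 genes per list and the 3 most alike transcripts) were chosen with earlier results of these data known. Stricter thresholds, bins alone and other ways to solve levels were tried as alternatives.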

Additional observations from a re-analysis of the deposited data

How the results depend on the processing

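At an absolute log2 fold change of 1 or more, the number of the 4 loci with a listed transcript was 1 in place of 2 for light in swap1 and for swap1 against WT in red light, and it did not change for the other 2 comparisons. An adjusted p-value of at most 0.01, or the transcript with the highest base mean alone, changed none of the 4 counts. For splicing, an FDR of at most 0.001 left 0 of 2 regions for light in WT. Bins alone left 1 of 2 regions for light in swap1. Bins at 1 or more on that scale left 0 for light in each genotype, 4 of 13 and 8 of 15 for swap1 against WT in red light and in the dark, 5 of 15 for the triple mutant over WT in red light, and 0 of 1 and 0 of 3 against sfpsrrc1 in red light and in the dark. These settings only remove listed regions. By the largest absolute difference in place of the root mean square, 1 of the 3 transcripts most like AT1G07890.4 was shared. Its WT levels from the genotype tables, 137 in red light and 72.8 in the dark, differed from 132 and 65.6 in the light table by less than the deposited SE. Counts for the gene lists stayed within 1.5 times in 40 of 44 cases at an adjusted p-value of 0.01, but in only 20 of 44 at an absolute log2 fold change of 1. There the ascorbate peroxidases listed by light were 1 in place of 5 in swap1 and 1 in place of 3 in WT. Leaving out single libraries was not possible, and no second weighting of groups was run. No paired analysis was possible because the files hold no value for a single library. Depth per library is unknown.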
